A study of Mus musculus with 6 samples.

Results

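The 40 genes described here act in G2 phase and mitosis, and were taken by symbol from the 23407 genes of the deposited table. All 40 were present, all had a mean of at least 10 normalised reads over the libraries, and all were tested. They were measured by bulk RNA sequencing in primary dermal fibroblasts of mice, with 3 wild-type (WT) libraries and 3 from TSP2KO mice, which lack thrombospondin-2, a secreted matrix protein encoded by Thbs2. The cells of both groups came from dorsal skin of mice aged 12 weeks, grew for 3 to 5 days in medium with serum, and gave RNA at passage 1. The labels give neither the construct of the knockout nor the strain, and leave unsaid whether each library had its own mouse. The p-values thus measure only library-to-library spread, part of which may be technical.

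Cells enter mitosis when Cdk1, bound to cyclin A or cyclin B, phosphorylates the proteins that condense chromosomes and build the spindle, and they leave it when the anaphase-promoting complex (APC/C) destroys the cyclins. The transcripts for this machinery are made late in the cell cycle and are scarce in resting cells, so their summed level in a culture is widely read as a sign of how many cells are dividing. Cultured dermal fibroblasts divide in serum and slow down when crowded or differentiated. In bulk RNA, fewer cells of a type and less RNA per cell cannot be told apart, and here neither can more cycling cells and more of these transcripts in each cycling cell.

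The library labelled WT 3 went against its label in the targeted gene. Thbs2 (chromosome 17, 14665500 to 14694235, minus strand) stood at 122061 and 116720 normalised reads for WT 1 and WT 2 but at 8841 for the library labelled WT 3, beside 5177, 6635 and 4891 for the 3 TSP2KO libraries. That library was kept in its labelled group, so the size and p-value of every difference by label depend on it. The fit is also given with it left out, a choice made after its Thbs2 value was seen. Values by library follow 1 order throughout: WT 1, WT 2, the library labelled WT 3, then TSP2KO 1, TSP2KO 2 and TSP2KO 3. Estimated depth, the column total divided by the worth of 1 read, ran from 14776502 to 34599855 reads and was highest in WT 1 and WT 2. At these depths each of the 40 genes rested on at least 80.2 estimated reads in every library, which counts reads and not molecules. The 12 fibroblast markers were above 0 in all 6 libraries, among them Col3a1, Col1a2, Col1a1 and Dcn.

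Many promoters of G2 and M phase genes carry a cell cycle homology region (CHR), where the DREAM and MuvB complexes bind, and CCAAT boxes, bound by NF-Y. RefSeq windows on GRCm38.p6, from 250 bases before to 50 bases after the gene start, were matched by symbol for 34 of the 40 genes, as 36 windows. Ccna2, Cdc25c, Aurkb, Kif20a, Tpx2 and Dlgap5 were not matched. The 6 windows printed here, 5′ to 3′ along the gene, show how the motifs lie in genes of 3 role groups and in Racgap1, the member with the smallest difference once the library labelled WT 3 is left out. Capitals mark the CHR as TTTGAA or in its variant form TTTAAA, the NF-Y box as CCAAT, and an E2F motif, searched as TTTCGCGC or as TTTGGCGC or else as TTCCCGCC. Each was searched on both strands, so capitals that read ATTGG are a CCAAT box on the opposite strand, and those that read TTCAAA are a CHR there. TTTAAA reads the same on both strands, and no match was dropped for lying over another.
Cdk1, chr10:69352863-69353162, minus strand: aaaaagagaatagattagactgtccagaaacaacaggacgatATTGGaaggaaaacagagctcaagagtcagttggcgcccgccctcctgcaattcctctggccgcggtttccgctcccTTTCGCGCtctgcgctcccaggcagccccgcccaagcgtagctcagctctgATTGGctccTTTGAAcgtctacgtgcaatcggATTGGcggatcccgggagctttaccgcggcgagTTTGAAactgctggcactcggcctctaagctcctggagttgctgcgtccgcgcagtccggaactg
Ccnb1, chr13:100786437-100786736, minus strand: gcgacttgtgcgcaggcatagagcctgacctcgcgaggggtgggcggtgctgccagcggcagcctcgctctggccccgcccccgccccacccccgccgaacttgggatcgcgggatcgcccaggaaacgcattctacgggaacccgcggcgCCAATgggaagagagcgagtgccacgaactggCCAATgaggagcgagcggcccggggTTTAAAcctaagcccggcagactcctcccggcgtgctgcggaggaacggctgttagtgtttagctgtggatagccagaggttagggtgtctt
Aurka, chr2:172370521-172370820, minus strand: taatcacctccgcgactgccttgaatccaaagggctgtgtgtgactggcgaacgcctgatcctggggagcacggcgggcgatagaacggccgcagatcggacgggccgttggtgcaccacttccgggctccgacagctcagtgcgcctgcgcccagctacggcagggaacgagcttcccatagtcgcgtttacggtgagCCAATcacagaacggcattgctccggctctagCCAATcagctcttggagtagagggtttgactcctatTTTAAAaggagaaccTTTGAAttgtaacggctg
Cdc20, chr4:118437294-118437593, minus strand: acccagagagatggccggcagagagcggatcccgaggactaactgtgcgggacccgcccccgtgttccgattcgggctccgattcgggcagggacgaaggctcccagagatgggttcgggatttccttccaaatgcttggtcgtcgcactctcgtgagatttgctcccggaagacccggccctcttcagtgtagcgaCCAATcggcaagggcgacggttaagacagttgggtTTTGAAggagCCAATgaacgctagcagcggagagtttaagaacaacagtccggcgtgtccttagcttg
Ube2c, chr2:164769679-164769978, plus strand: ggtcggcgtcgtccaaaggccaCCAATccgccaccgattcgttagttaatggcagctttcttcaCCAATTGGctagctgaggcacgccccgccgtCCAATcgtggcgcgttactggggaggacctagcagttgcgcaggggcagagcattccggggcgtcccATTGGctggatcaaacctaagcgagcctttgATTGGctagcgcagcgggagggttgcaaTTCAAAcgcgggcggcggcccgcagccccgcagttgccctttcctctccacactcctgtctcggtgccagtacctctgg
Racgap1, chr15:99651607-99651906, minus strand: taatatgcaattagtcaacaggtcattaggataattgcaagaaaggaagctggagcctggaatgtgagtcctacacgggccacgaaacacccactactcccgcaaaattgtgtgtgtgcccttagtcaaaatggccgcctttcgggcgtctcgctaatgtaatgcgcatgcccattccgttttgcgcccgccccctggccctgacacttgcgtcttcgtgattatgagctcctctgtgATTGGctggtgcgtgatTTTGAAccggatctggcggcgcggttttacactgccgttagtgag

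A CHR was found in 31 of the 36 windows of the mitosis and G2/M genes (86.1%), against 27.6% of all 32851 windows. TTTGAA was in 77.8% of the members' windows and 17.9% of all, and TTTAAA in 25% and 13.2%. CCAAT was in 83.3% and 37.4%, and at least 2 CCAAT boxes in 58.3% and 11.7%. Both a CHR and a CCAAT box stood in 75% of the members' windows and 10.7% of all. The matches also lay close to the gene start: a CHR started within 50 bases of it in 75% of the members' windows and in 8.28% of all. Cdk1 has CHR matches that start 15 and 71 bases before the gene start, CCAAT boxes at 48, 80 and 208 bases before it, and an E2F match at 131. Racgap1 has a CHR that starts 6 bases after the gene start and a CCAAT box 12 bases before it. The 3 E2F motifs were rare, with a match in 2.78% of the members' windows and 2.96% of all. Windows of S phase and DNA replication genes had a CHR in 22.5% and CCAAT in 60%, and those of other spindle, centrosome and cytokinesis genes had a CHR in 60% and CCAAT in 53.3%. No CHR was found for Bub1, Cks2, Nek2, Nuf2 and Nusap1. Without the library labelled WT 3, the median log2 fold change was 1.56 for the 29 matched genes with a CHR and 1.44 for these 5. That difference was not tested. These shares describe letters in a window, and binding was not measured.

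**Figure D1:**
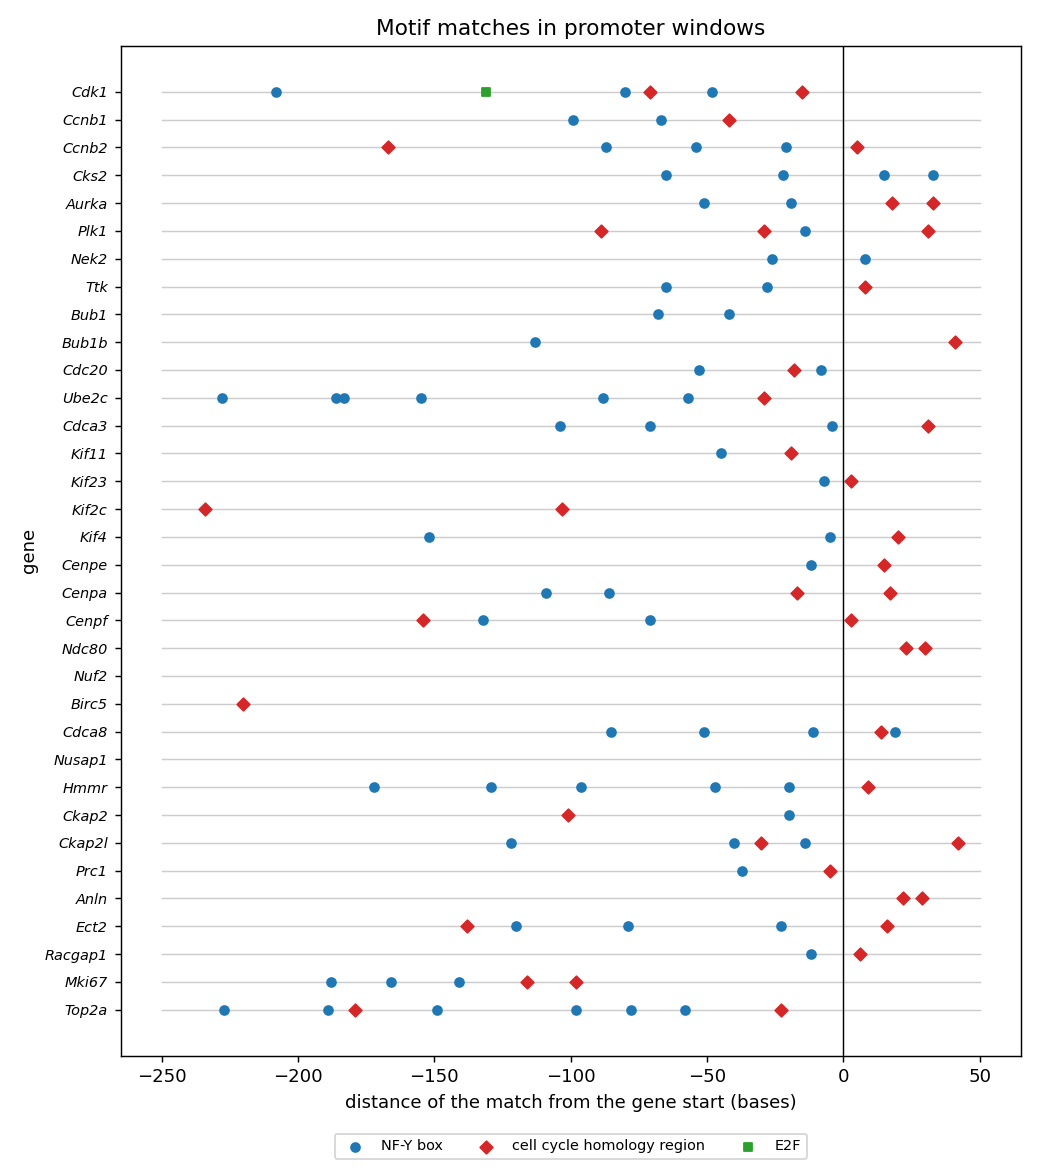
Motif matches in the promoter windows of the 34 matched mitosis and G2/M genes, by distance in bases from the gene start (vertical line at 0). Red diamonds are CHR matches, blue circles NF-Y (CCAAT) boxes and the green square an E2F match, with the first listed window shown for genes with more than 1. Most CHR matches lie within 50 bases of the start, and most NF-Y boxes upstream of it.

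By library, the mitosis and G2/M genes moved together. The library labelled WT 3 and all 3 TSP2KO libraries lay above both WT 1 and WT 2 for 39 of the 40 genes. Over all 14707 genes tested this held for 18.2%. It is a description by value, since that split of the libraries follows no label, and it was not tested. Set against the mean of WT 1 and WT 2 on the log2 scale, the median over the 40 genes was 2.22 in the library labelled WT 3, 1.96 in TSP2KO 1, 1.60 in TSP2KO 2 and 1.23 in TSP2KO 3. In ratios to the mean of WT 1 and WT 2, these medians were 4.66, 3.90, 3.03 and 2.34. The order WT 3, TSP2KO 1, TSP2KO 2, TSP2KO 3, with WT 1 and WT 2 last, was shared by 31 genes. The highest library was the one labelled WT 3 for 37 genes and TSP2KO 2 for the other 3. WT 1 and WT 2 were close, within 1.25-fold of each other for 33 genes. Summed over the 40 genes, the transcripts took 0.0763% and 0.0707% of the normalised reads in WT 1 and WT 2. The library labelled WT 3 reached 0.369%, and the TSP2KO libraries 0.317%, 0.248% and 0.168%.

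**Figure D2:**
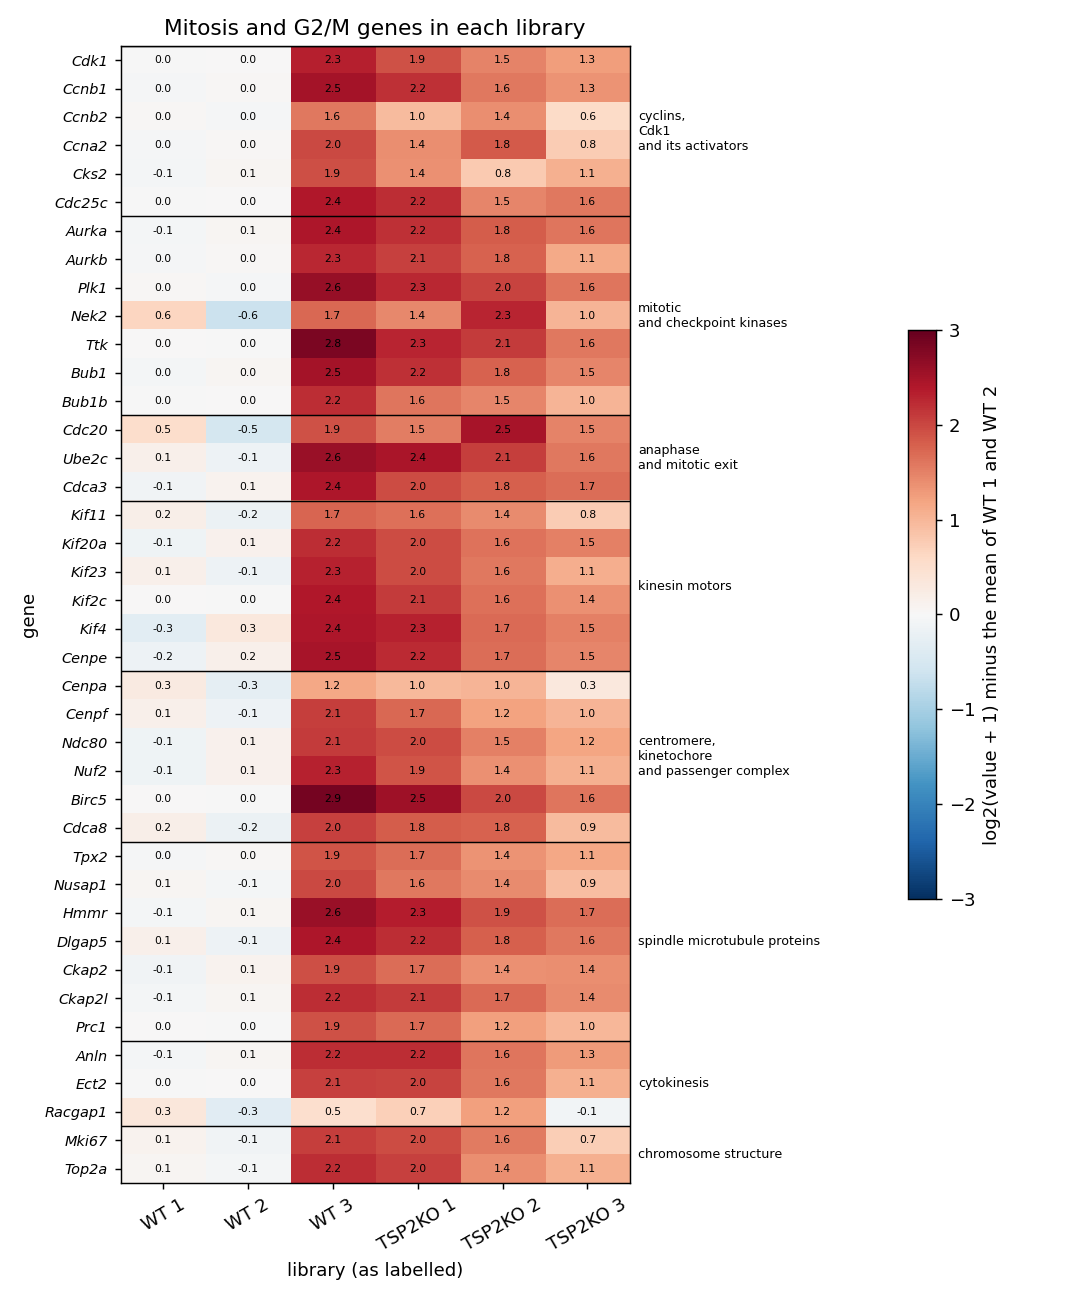
Heat map of the 40 mitosis and G2/M genes (rows, grouped by role) in the 6 libraries (columns), as log2(value + 1) minus the mean of WT 1 and WT 2, with each value printed in its cell. Rows are red across WT 3 and the TSP2KO libraries, except Racgap1, which is at -0.09 in TSP2KO 3.

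By label, no mitosis or G2/M gene passed the threshold, an adjusted p under 0.05 by limma over all genes tested, nor did any other gene pass as higher in TSP2KO (0% of 14707). At an unadjusted p under 0.05, limma gave 0 of the 40 genes and 538 of all genes as higher. Fold changes here are differences of mean log2(value + 1), TSP2KO minus WT. All 40 had a positive value, between 0.37 for Cenpa and 1.19 for Cdc20, with a median of 0.87 against -0.01 over all genes. Adjusted p ran from 0.601 to 0.838. TSP2KO 3 lay below the library labelled WT 3 for all 40, at 39.5% to 75.1% of it, so 0 of the 40 had every TSP2KO library above every WT library, against 5.9% of all genes. Without the library labelled WT 3, 31 of the 40 genes passed as higher (limma adjusted p from 0.0138 to 0.0450) and 0 as lower. The corresponding shares of all genes were 2.43% higher and 2.75% lower. The median of the 40 was then 1.57, against -0.03 over all genes. The 9 that did not pass were Ccnb2, Ccna2, Cks2, Nek2, Cdc20, Kif11, Cenpa, Racgap1 and Mki67, with adjusted p from 0.0522 to 0.394. Whether they differ from the 31 was not tested. The library labelled WT 3 was left out after its Thbs2 value was seen, and it was the highest library for 37 of the 40 genes. Leaving it out thus raised their differences, and the p-values of that fit take no account of this choice.

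**Figure D3:**
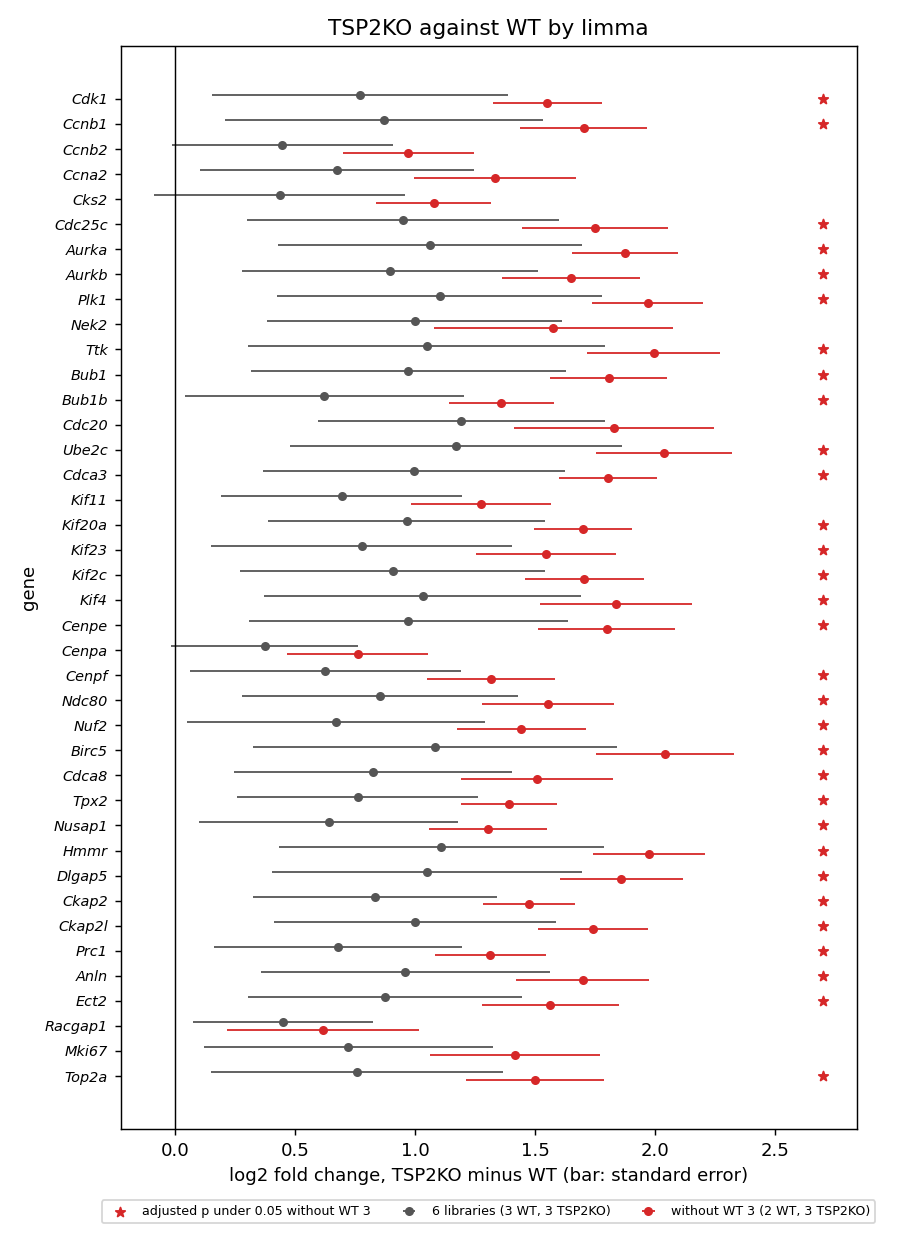
Log2 fold change of each of the 40 genes, TSP2KO minus WT, with its standard error, from limma on all 6 libraries (grey) and without the library labelled WT 3 (red). Red stars mark the 31 genes with an adjusted p under 0.05 without WT 3; every grey point lies between 0.37 and 1.19 and none passed.

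Cdk1 and the cyclins that bind it start mitosis. Cdk1 (chromosome 10, 69335146 to 69352938, minus strand), the kinase itself, stood at 276, 282 and 1415 normalised reads under the WT label and at 1043, 785 and 670.4 in TSP2KO. Ccnb1 (chromosome 13, 100778650 to 100786570, minus strand), cyclin B1, gave 500.0, 530.0 and 2903 against 2352, 1543 and 1304. Cdc25c, the phosphatase that removes the inhibitory phosphates from Cdk1, had 41.3, 41.4 and 222 in the WT libraries and 195, 115 and 126 in TSP2KO. In these 3 genes WT 1 and WT 2 were nearly equal and every other library stood above them, and the groups overlapped through the library labelled WT 3. By label, Cdk1 averaged 658 ± 656 for WT and 833 ± 191 for TSP2KO (SD, n = 3), a log2 fold change of 0.77 (SE 0.61, limma adjusted p = 0.751). Leaving out the library labelled WT 3 gave 1.55 (SE 0.23, limma adjusted p = 0.0196). Ccnb1 then had 1.70 (adjusted p = 0.0225) and Cdc25c 1.75 (adjusted p = 0.0292). The other cyclin genes of the set, Ccnb2 and Ccna2, and Cks2, a small subunit that binds Cdk1, had smaller values and did not pass in that fit either, at 0.97, 1.33 and 1.08. Cks2 was lower in TSP2KO 2 (217) than in TSP2KO 3 (262), while Ccna2 was higher in TSP2KO 2 (262) than in TSP2KO 1 (190.0). Ccna2 overlaps Exosc9, and Cdc25c overlaps Gm3550. The labels name a stranded kit, but whether reads were counted by strand is not stated in the sources at hand, so both values are uncertain.

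The kinases of mitosis and of its checkpoint followed the same order of libraries, with Nek2 as the exception. Aurka (chromosome 2, 172356190 to 172370535, minus strand) encodes Aurora A, which matures centrosomes and builds spindle poles. It counted 205, 221 and 1155 normalised reads for WT and 981, 749 and 655 for TSP2KO. Plk1 (chromosome 7, 122159439 to 122169873, plus strand), polo-like kinase 1, acts from mitotic entry to cytokinesis and gave 210.1, 203 and 1259 against 996, 849.8 and 632. Without the library labelled WT 3 the log2 fold change was 1.87 for Aurka (SE 0.22) and 1.97 for Plk1 (SE 0.23), both with a limma adjusted p of 0.0144. With all 6 libraries these were 1.06 (adjusted p = 0.678) and 1.10 (adjusted p = 0.686). Nek2, a centrosome kinase, had 83.9 in WT 1 and 33.7 in WT 2, the widest gap of any member between these libraries, 2.49-fold. Its highest value was 264 in TSP2KO 2, against 179.6 for the library labelled WT 3, 145 for TSP2KO 1 and 109 for TSP2KO 3, and it did not pass on the 5 libraries other than that labelled WT 3 (limma adjusted p = 0.113). Of the other kinases, Aurkb is the kinase of the chromosomal passenger complex, and Ttk, Bub1 and the pseudokinase gene Bub1b serve the spindle assembly checkpoint. All 4 passed without that library, with log2 fold changes from 1.36 for Bub1b to 1.99 for Ttk. Ttk had the second highest ratio of the library labelled WT 3 to the mean of WT 1 and WT 2, with 383 against 53.0 and 52.6 normalised reads.

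The 3 genes placed with anaphase and mitotic exit had the largest median log2 fold change of the 8 role groups by label, 1.17. Cdc20 (chromosome 4, 118432901 to 118437352, minus strand), the activator that turns the APC/C on in anaphase, gave 135, 65.1 and 353 normalised reads under the WT label. In TSP2KO it had 272, 523 and 265, so that TSP2KO 2 stood highest and the other 2 lay below the library labelled WT 3. Cdc20 overlaps Elovl1, an abundant gene on the other strand, and its value is uncertain for that reason. Ube2c (chromosome 2, 164769898 to 164778822, plus strand), the ubiquitin-conjugating enzyme of the APC/C, ran 151, 122 and 829.6 through WT and 745, 575 and 411 through TSP2KO. Cdca3, a trigger of mitotic entry that degrades Wee1, gave 96.3, 111 and 561 against 405, 359.7 and 330.3. Both followed the common order, and both rose without the library labelled WT 3, by a log2 fold change of 2.04 (limma adjusted p = 0.0186) and 1.80 (adjusted p = 0.0138). Cdc20 had 1.83 in that fit (adjusted p = 0.0550).

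**Figure D4:**
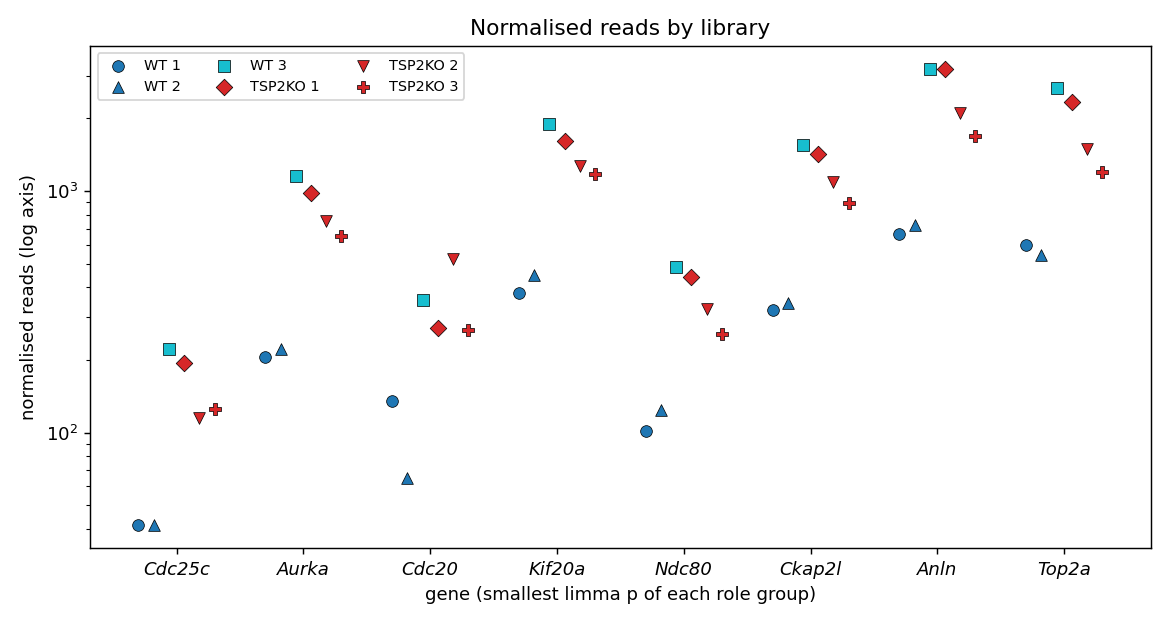
Normalised reads (log axis) in each of the 6 libraries for the gene with the smallest limma p in each of the 8 role groups. WT 1 and WT 2 (blue) lie lowest for every gene, and WT 3 (cyan) lies among or above the TSP2KO libraries (red), as for Aurka with 205 and 221 in WT 1 and WT 2 and 1155 in WT 3.

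Mitotic kinesins slide, move along or shorten spindle microtubules. Kif20a, which carries passenger proteins to the central spindle, stood at 378, 448 and 1901 normalised reads under the WT label and at 1610.0, 1268 and 1178 in TSP2KO. Kif4, a chromokinesin gene on chromosome X, gave 95.8, 149.9 and 644 against 599, 391 and 342. Cenpe, the motor at the kinetochore that helps chromosomes to line up, ran 81.4, 101 and 509 through WT and 434, 293 and 251 through TSP2KO. All 3 fell into the common order of libraries. With the library labelled WT 3 left out the log2 fold changes were 1.70, 1.84 and 1.80 (limma adjusted p = 0.0144, 0.0285 and 0.0235). Kif23 of the central spindle and the microtubule depolymerase gene Kif2c passed as well, at 1.55 and 1.71. Kif11, the motor that pushes the spindle poles apart, had 1.27 and did not pass (adjusted p = 0.0552). Kif20a overlaps Cdc23 and Kif4 overlaps Pdzd11, both on the other strand, so their values are uncertain.

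At the centromere, kinetochore and passenger complex the log2 fold changes without the library labelled WT 3 ran from 0.76 to 2.04, the widest range of the 8 role groups. Birc5 (chromosome 11, 117849251 to 117855743, plus strand), survivin, counted 172, 169 and 1253 normalised reads for WT and 999, 672 and 518 for TSP2KO. The library labelled WT 3 was 7.37-fold above the mean of WT 1 and WT 2, the highest such ratio of the 40 genes. Ndc80, which grips microtubules at the kinetochore, ran 102, 124 and 487 through WT and 441, 324 and 257 through TSP2KO. Cdca8, borealin of the passenger complex, gave 137, 106 and 500.4 against 429, 411 and 232. Once the library labelled WT 3 was left out these 3 rose, by log2 fold changes of 2.04, 1.56 and 1.51 (limma adjusted p = 0.0186, 0.0296 and 0.0450), as did Cenpf and Nuf2. Cenpa, the histone variant that marks centromeres, is loaded in G1 although its transcript peaks in G2. It had 218 and 151 in WT 1 and WT 2 and 224 in TSP2KO 3, a log2 difference of 0.31 from the mean of WT 1 and WT 2. Its log2 fold change without that library was 0.76 (adjusted p = 0.174). Cdca8 overlaps 9930104L06Rik on the other strand and is uncertain.

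Among proteins that assemble and bundle spindle microtubules, all 7 genes passed without the library labelled WT 3, with log2 fold changes from 1.30 for Nusap1 to 1.97 for Hmmr. Hmmr (chromosome 11, 40701395 to 40733422, minus strand), a receptor for hyaluronan that also binds the spindle, stood at 211, 229 and 1332 normalised reads under the WT label and at 1122, 829 and 703 in TSP2KO. Ckap2l gave 322, 345 and 1558 against 1423, 1093 and 896, and its relative Ckap2 ran 203, 233 and 829 through WT and 696, 562 and 572 through TSP2KO. Ckap2 in TSP2KO 3 was at 68.9% of its level in the library labelled WT 3, second only to Cdc20 at 75.1% among the 40, and TSP2KO 2 and TSP2KO 3 were nearly equal. By label the limma adjusted p of Hmmr, Ckap2l and Ckap2 was 0.684, 0.675 and 0.684. Leaving that library aside, it was 0.0144, 0.0168 and 0.0168. The rest of the group was Tpx2, which targets Aurora A to the spindle, Nusap1, Dlgap5 and Prc1, which bundles the central spindle, with log2 fold changes of 1.39, 1.30, 1.86 and 1.31. Prc1 and Nusap1 overlap Rccd1 and Oip5 on the other strand and are uncertain.

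Cytokinesis held both the common pattern and the member furthest from it. Anln, anillin of the contractile ring, counted 664, 721 and 3213 normalised reads for WT and 3199, 2105 and 1687 for TSP2KO, so the library labelled WT 3 and TSP2KO 1 were nearly equal. Ect2, the exchange factor that activates RhoA at the cell equator, ran 403, 416 and 1708 through WT and 1683, 1235 and 855 through TSP2KO. Racgap1 (chromosome 15, 99620496 to 99651656, minus strand), a subunit of centralspindlin that binds Ect2, gave 472, 293 and 528 against 615, 870.0 and 349. TSP2KO 3 lay between WT 1 and WT 2, and WT 1 was 1.61-fold above WT 2. With the library labelled WT 3 left out, Anln and Ect2 rose by log2 fold changes of 1.70 and 1.56 (limma adjusted p = 0.0254 and 0.0329), while Racgap1 had 0.62 (SE 0.40, adjusted p = 0.394). TSP2KO 2 was the highest library for Racgap1, Nek2 and Cdc20 alone among the 40. These 3 also had WT 1 above WT 2 by 1.61-fold, 2.49-fold and 2.07-fold, more than any other member. Cenpa followed at 1.44-fold. These genes were singled out after their values were seen.

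Of the genes for chromosome structure, Mki67, which encodes the Ki-67 antigen that coats mitotic chromosomes, stood at 184, 157 and 721 normalised reads under the WT label and at 659.5, 501 and 285 in TSP2KO. Top2a, topoisomerase II alpha, which untangles sister chromatids, gave 596, 545 and 2667 against 2346, 1495 and 1200.2. Mki67 had the lowest level in TSP2KO 3 relative to the library labelled WT 3 of all members, at 39.5%. Top2a rose without that library (log2 fold change 1.50, limma adjusted p = 0.0371), and Mki67 had 1.42 (adjusted p = 0.0656).

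Levels between genes were compared as normalised reads per kilobase of the union of exons in GENCODE M21. On that scale the mean level over the 6 libraries ran from 18.1 for Cenpf to 369 for Cks2, with Ccnb1 at 361, Plk1 at 314 and Ckap2l at 299. Cks2 was highest in WT 1, WT 2, the library labelled WT 3 and TSP2KO 3, Ccnb1 in TSP2KO 1 and Plk1 in TSP2KO 2. The lead of Cks2 over Ccnb1 varied: per kilobase they had 173 and 119 in WT 1, 689.6 and 688 in the library labelled WT 3, then 379 and 309 in TSP2KO 3, and Ccnb1 was ahead in TSP2KO 1 and TSP2KO 2. The order of the leading genes thus changed between libraries. At the low end Cenpf was last in all libraries but WT 1, where Cdc25c was last. Exon unions are longer than most single transcripts, so these levels may understate genes with many isoforms. The 40 genes lay on 18 chromosomes, with 7 on chromosome 2.

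Other genes of the pathway were taken from lists of its parts that hold none of the 40. By label 0 of their genes passed in either direction by limma. Without the library labelled WT 3, 12 of 37 other kinetochore and centromere genes and 16 of 29 other spindle, centrosome and cytokinesis genes passed as higher, and 0 as lower. Their medians in that fit were 1.02 and 1.21. Over all genes tested, 2.43% passed as higher and 2.75% as lower in that fit, with a median of -0.03. Tacc3, a spindle protein that binds Aurora A, had 321, 317 and 1638 normalised reads under the WT label and 1416, 1184 and 847 in TSP2KO. Nsl1, of the Mis12 complex, had 53.0, 32.2 and 108 against 182, 242 and 138.0. It was thus higher in every TSP2KO library than in any WT library, with a log2 fold change of 1.66 by label (SE 0.46, limma adjusted p = 0.277). Condensin and cohesin genes had 6 of 20 past the threshold as higher and a median of 0.21. Ncapg, of condensin I, had a log2 fold change of 1.45 (adjusted p = 0.0207), while the cohesin regulators Pds5b, Esco1 and Nipbl had -0.31, -0.28 and -0.43 and did not pass. Other cohesin regulators lay higher: Esco2 passed at 1.42 (limma adjusted p = 0.0451), and Cdca5 had 1.25 and did not pass (limma adjusted p = 0.0809). Esco2 and Cdca5 were named after their values were seen. Subunits and regulators of the APC/C had 2 of 20 past as higher and a median of 0.01.

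Regulators of G2/M entry and transcription include many that control proteins and not transcripts. Without the library labelled WT 3 they had 5 of 25 past the threshold as higher and a median of 0.18. Over all genes these were 2.43% and -0.03. Foxm1, the factor that drives late cell cycle promoters with MuvB, had 76.7, 66.7 and 299.6 normalised reads under the WT label and 252, 340.1 and 166 in TSP2KO. Its log2 fold change was 1.06 by label (limma adjusted p = 0.653) and 1.74 without that library (adjusted p = 0.0351). Gtse1, which is made in G2 and restrains p53, had 146, 272 and 853 against 885, 650.1 and 1076. Unlike any of the 40 it was highest in TSP2KO 3, and it passed without the library labelled WT 3, at 2.09. Cdc25b and Mastl also passed, at 1.55 and 1.08.

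S phase and DNA replication genes had the same ranking of libraries by their medians, each lower than that of the mitosis and G2/M genes. Their median log2 difference from the mean of WT 1 and WT 2 reached 1.48 for the library labelled WT 3, then 1.28, 1.03 and 0.63 over the TSP2KO libraries, beside 2.22, 1.96, 1.60 and 1.23 for the mitosis and G2/M genes. The difference between these lists was not tested. Without the library labelled WT 3, 17 of 44 passed as higher and 0 as lower, against 2.43% and 2.75% of all genes. Rrm2, the regulated subunit of ribonucleotide reductase, had a log2 fold change of 2.36 in that fit (limma adjusted p = 0.0120). The G1 list held cyclins, kinases, inhibitors, pocket proteins and E2F factors. Its medians were -0.03 for the library labelled WT 3, then -0.02, -0.21 and 0.14 over TSP2KO. Of this list 2 of 21 passed as higher without that library, against 2.43% of all genes. Both were E2F factors, E2f7 at 1.42 and E2f8 at 2.00, and were named after their values were seen. Cdkn1a, the p21 inhibitor, had 2457, 4830.3 and 3464 normalised reads under the WT label and 4627, 5323 and 8339.7 in TSP2KO. It was highest in TSP2KO 3, the TSP2KO library with the lowest median over the mitosis and G2/M genes. Its lowest value was in WT 1, where those genes were low as well, and a link between them was not tested. The log2 fold change of Cdkn1a by label, 0.77, did not pass (limma adjusted p = 0.496). Cdkn2c, another inhibitor gene of the list, went the other way, with 188, 195 and 160 under the WT label and 123, 93.4 and 65.9 in TSP2KO. Its log2 fold change by label, -0.98, did not pass either (limma adjusted p = 0.299). By label Cdkn1b was also lower, at -0.38, while Cdkn2b and Cdkn2d were higher, at 0.47 and 0.13.

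**Figure D5:**
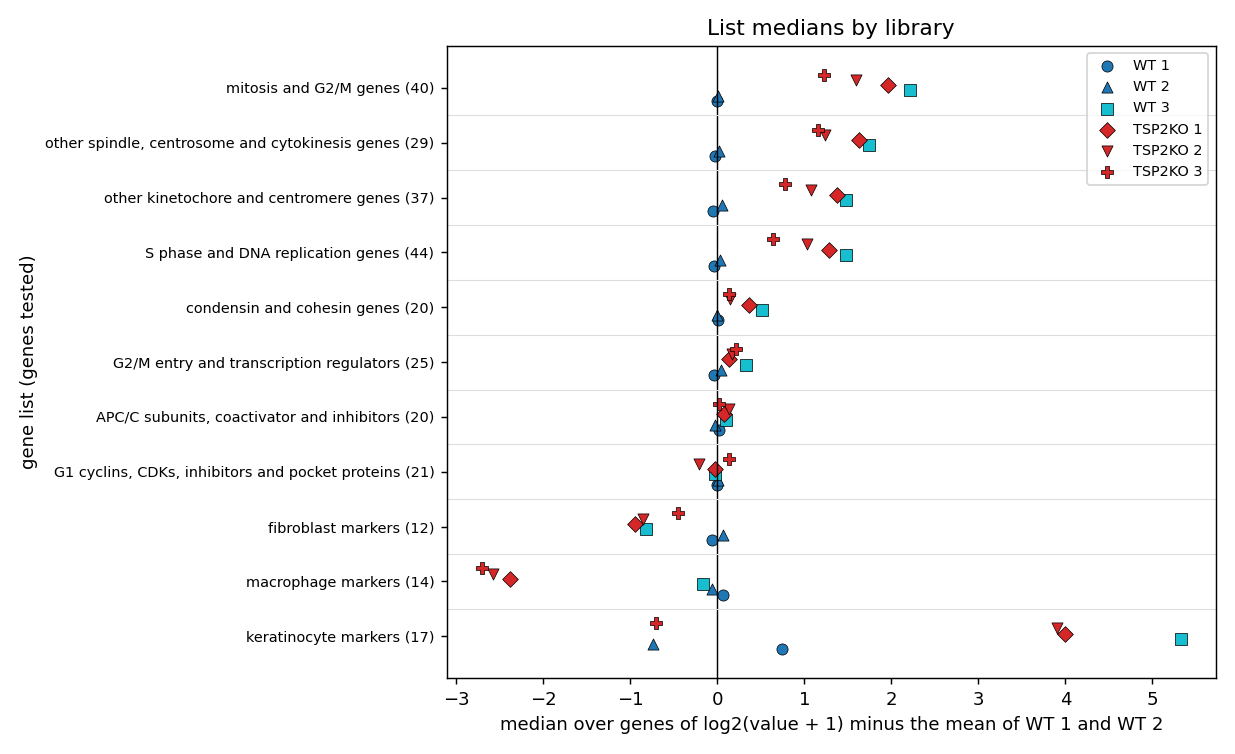
Median over the tested genes of each list (number in brackets) of log2(value + 1) minus the mean of WT 1 and WT 2, 1 point per library. The mitosis and G2/M genes run from 1.23 in TSP2KO 3 to 2.22 in WT 3, S phase genes from 0.63 to 1.48, and keratinocyte markers reach 5.32 in WT 3 but -0.71 in TSP2KO 3.

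Markers of other cell types moved with parts of this pattern. The 22 keratinocyte markers summed to 2835, 985 and 61007 normalised reads under the WT label and to 21904, 18997 and 1134 in TSP2KO. Between 18 and 21 of the 22 were above 0 in each library, with Krt1 at 0 in WT 1, the library labelled WT 3 and TSP2KO 1, and Krt15, Krt8, Epcam and Lgals7 at 0 in TSP2KO 3. Krt14, a basal keratin, had 157 normalised reads in TSP2KO 3 against 553 and 180 in WT 1 and WT 2. The summed keratinocyte markers of TSP2KO 3 lay between those of WT 1 and WT 2. Krt14 was below both there, and Krt6a (110) and Krt17 (73.9) lay between them. Keratinocyte medians were 5.32 for the library labelled WT 3, then 4.00, 3.90 and -0.71 over TSP2KO. Those of the mitosis and G2/M genes were 2.22, 1.96, 1.60 and 1.23. The 15 macrophage markers summed to 6146, 5086 and 3444 in the WT libraries and to 746, 865 and 863 in TSP2KO, with 15 of 15 above 0 in WT and 14 of 15 in TSP2KO, where Aif1 was at 0. Their median was -0.16 in the library labelled WT 3, close to WT 1 and WT 2, and -2.38, -2.58 and -2.71 over TSP2KO. The 12 fibroblast markers had medians of -0.83 for the library labelled WT 3, then -0.95, -0.86 and -0.45 over TSP2KO, all below WT 1 and WT 2. The 10 endothelial markers summed to 1717, 839 and 6518 in WT and to 3086, 2939 and 701 in TSP2KO, with none at 0. Medians in the library labelled WT 3 and the TSP2KO libraries were 2.14, 0.60, 1.20 and 0.74 for pericyte and smooth muscle markers and 2.00, 1.30, 0.60 and -1.50 for melanocyte markers. For Schwann cell markers they were -0.75, -0.86, -0.95 and -2.38. Only 1 skeletal muscle and 1 T cell marker had a mean of at least 10. The part of other cell types, and of sequencing depth, in the levels of the mitosis and G2/M genes was not tested.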

How the data were processed

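The deposited values are read counts per gene that the authors normalised per library, a signal and not whole counts. The submitters' processing notes name mm10, STAR, Partek and DESeq2 without role or order; counting options and strand use are not stated in the sources at hand. Table columns were assigned by genotype and number, although the suffix that ends each column name differs from the one in that sample's label, for all 6 libraries. The identity of each column, that labelled WT 3 included, rests on this match. Gene coordinates are printed with 1 base less at the stop, which made 96.4% equal to GENCODE M21.

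Genes with a mean of at least 10 (14707) were tested as log2(value + 1) with limma 3.58.1 (R 4.3.3), using a mean-variance trend, two-sided, with Benjamini-Hochberg adjustment over all of them. The pseudocount understates changes of low genes. The procedure was tested on simulated data with genes drawn independently and all 6 libraries. The fit without the library labelled WT 3 was not simulated. Between 68.6% and 73.9% of values above 0 were whole multiples of 1 read's worth, within 0.02 of a read, so whole reads were not recovered and no count model was run. The 40 genes, the other lists, the motifs and the fit without the library labelled WT 3 were chosen with earlier results of these data known. Values are given in full for the 3 genes with the smallest limma p in each of 8 role groups, and other lists name up to 4 genes by smallest p. The promoters printed were picked after values were seen.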

Additional observations from a re-analysis of the deposited data

How the results depend on the processing

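For the mitosis and G2/M genes, 0 of 40 passed in either direction by limma under pseudocounts of 0.1 and 10, no filter, a filter at a mean of 100, TMM rescaling, no mean-variance trend and the replicate block. With 1 library left out at a time the count of higher genes ran from 0 to 31, and only the fit without the library labelled WT 3 gave any. Their median log2 fold change, 0.87 with all libraries, stayed between 0.85 and 0.89 under the settings that keep all libraries and ran from 0.50 without WT 1 to 1.57 without the library labelled WT 3, and all 40 stayed positive in every fit. Over all genes, 9 passed as lower by label, 8 with TMM rescaling, 0 with a pseudocount of 0.1, 14 with 10, 0 with no filter, 0 with the filter at 100 and 15 with no trend. Leaving out 1 library gave 0 to 404 lower and 0 to 357 higher. The cause of these shifts was not tested. Deviations from the mean of each label correlated across genes at -0.42, -0.25 and -0.39 for same-numbered WT and TSP2KO libraries. For libraries with different numbers the correlations ran from -0.47 to 0.55. The WT mean includes the library labelled WT 3, so these values cannot settle whether the numbers pair the libraries. With the replicate block 0 genes passed as lower, in place of 9, and 0 as higher, and the median of the 40 was 0.87.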
